A study of Mus musculus with 11 samples.

Results

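The genes described here encode receptors through which transmitters of sympathetic and sensory nerves act on the vessel wall, and they were taken as a list of 9 gene symbols, namely Adra1d, Adra2a, Adrb1, Adrb3, Calcrl, Ramp1, Ramp2, Ramp3 and Npy1r. Probe sets that the platform annotation assigns to one of these symbols alone were found for 5 of the 9 genes, of 12393 genes named in this way. These 5 genes had 7 probe sets among 22626, with a pair each for Calcrl and Npy1r. Adra1d, Adra2a, Adrb1 and Adrb3 were not analysed here, so the members described are the components of the receptors for calcitonin gene-related peptide (CGRP) and adrenomedullin and a receptor for neuropeptide Y, and the adrenergic receptors enter only through related genes.

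Calcrl encodes a G protein-coupled receptor that reaches the cell surface only together with one of the receptor activity-modifying proteins (RAMPs), single-pass membrane proteins. With the product of Ramp1 it forms the receptor for CGRP, the vasodilator peptide of sensory nerves, and with the products of Ramp2 or Ramp3 it forms receptors for adrenomedullin, a vasodilator peptide made by vascular cells. Sympathetic nerves of arteries release noradrenaline together with neuropeptide Y, which constricts vessels through the receptor encoded by Npy1r.

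The samples were adventitia, the outer layer of the artery wall, cut by laser from frozen sections of abdominal aorta and read on 11 Affymetrix arrays, all from male mice of 78 weeks. From mice of strain B6.129P2-Apoe<tm1Unc>/J, which lack apolipoprotein E in all tissues and carry atherosclerotic lesions at this age, 4 arrays were of adventitia that held artery tertiary lymphoid organs (ATLO, lymphocyte aggregates) within the lesion area. Another 4 were of adventitia outside the lesion area of mice of this strain, which the series' design text calls mice without lesions. The remaining 3 were of wild-type mice labelled C57BL, whose sample titles alone carry the letters PNS. Each Apoe-deficient sample pooled 200 sections of 10 micrometres, and no such numbers are given for wild type. All mice received standard chow, and no drug treatment is given. Whether replicate arrays stem from different mice is not stated in the labels. The p-values therefore reflect the spread among the arrays at hand, which may be technical. In vitro transcription lasted 68 h for the Apoe-deficient and 24 h for the wild-type RNA, and the extraction kits differed too, so genotype and preparation cannot be told apart in comparisons with wild type.

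Values are signals, the brightness of a probe set on a linear scale as deposited. Signals under 35.1 (the 20th percentile of all values) were raised to that floor before taking log2, and testing required a signal above the array's own 40th percentile on 3 or more arrays. Of the 7 member probe sets, 5 passed this filter, and of all probe sets 14988. A change was called at a Benjamini-Hochberg adjusted p under 0.05 by limma, a linear model fitted to all 14988. Apoe was lower by limma in ATLO than in wild-type adventitia (log2 change -6.57 ± 0.41 (SE), adjusted p = 1.97e-06) and lower outside the lesion than in wild type (log2 change -7.05 ± 0.41, adjusted p = 2.15e-06). Of adventitial fibroblast markers, all 8 listed passed the filter, and their summed signal lay between 54580 and 103700 in ATLO, 29910 and 78590 outside the lesion, and 51730 and 58940 in wild type. Contractile genes of the neighbouring smooth muscle layer were read in every group too, with summed signals of 11 genes between 12850 and 31930 in ATLO, 21580 and 66770 outside the lesion, and 44370 and 48320 in wild type.

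Between ATLO and outside-lesion adventitia of the same genotype, Ramp3 was higher in ATLO and no other member passed the test. The Ramp3 signal was 163.2, 114.3, 175.7 and 125.4 on the ATLO arrays, against 44.5, 77.7, 21.6 and 27.2 on the outside-lesion arrays. All 4 ATLO arrays lay above all 4 outside-lesion arrays, of which replicates 3 and 4 were under the floor. The means were 144.6 ± 29.4 in ATLO and 42.75 ± 25.3 outside the lesion (SD, n = 4 each), a log2 change of 1.65 ± 0.33 (SE; 95% interval 0.94 to 2.36; limma adjusted p = 0.00188). The fold of 3.13 understates the difference to the extent that the outside-lesion arrays were raised to the floor. Ramp3 passed the filter through its ATLO arrays and wild-type replicate 2, since no outside-lesion array lay above its own 40th percentile, and it was also called with no filter (adjusted p = 0.00422). In tissue of mixed cells, fewer cells of a type and less RNA per cell cannot be told apart.

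This was 1 called member probe set of the 5 tested, where 31.9% of all probe sets tested were called in this comparison and 17.9% were called higher. Ramp3 was also the only 1 of the 5 whose arrays did not overlap between these groups, beside 30.4% of all probe sets tested. At an unadjusted p under 0.05 the count was also 1 of 5, beside 41.7% of all. With 5 probe sets, 1 call is close to the background and is no result about the members as a list. Of all 4777 calls, 2688 were higher in ATLO and 2089 lower (56.3% higher), whereas with equal array medians 1985 were higher and 2517 lower (44.1%). That scaling moved the median log2 change of all probe sets by -0.117, and Ramp3 then changed by 1.54 (adjusted p = 0.00405). The median log2 change of the 5 member probe sets was 0.21, beside 0.10 for all probe sets tested.

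**Figure D1:**
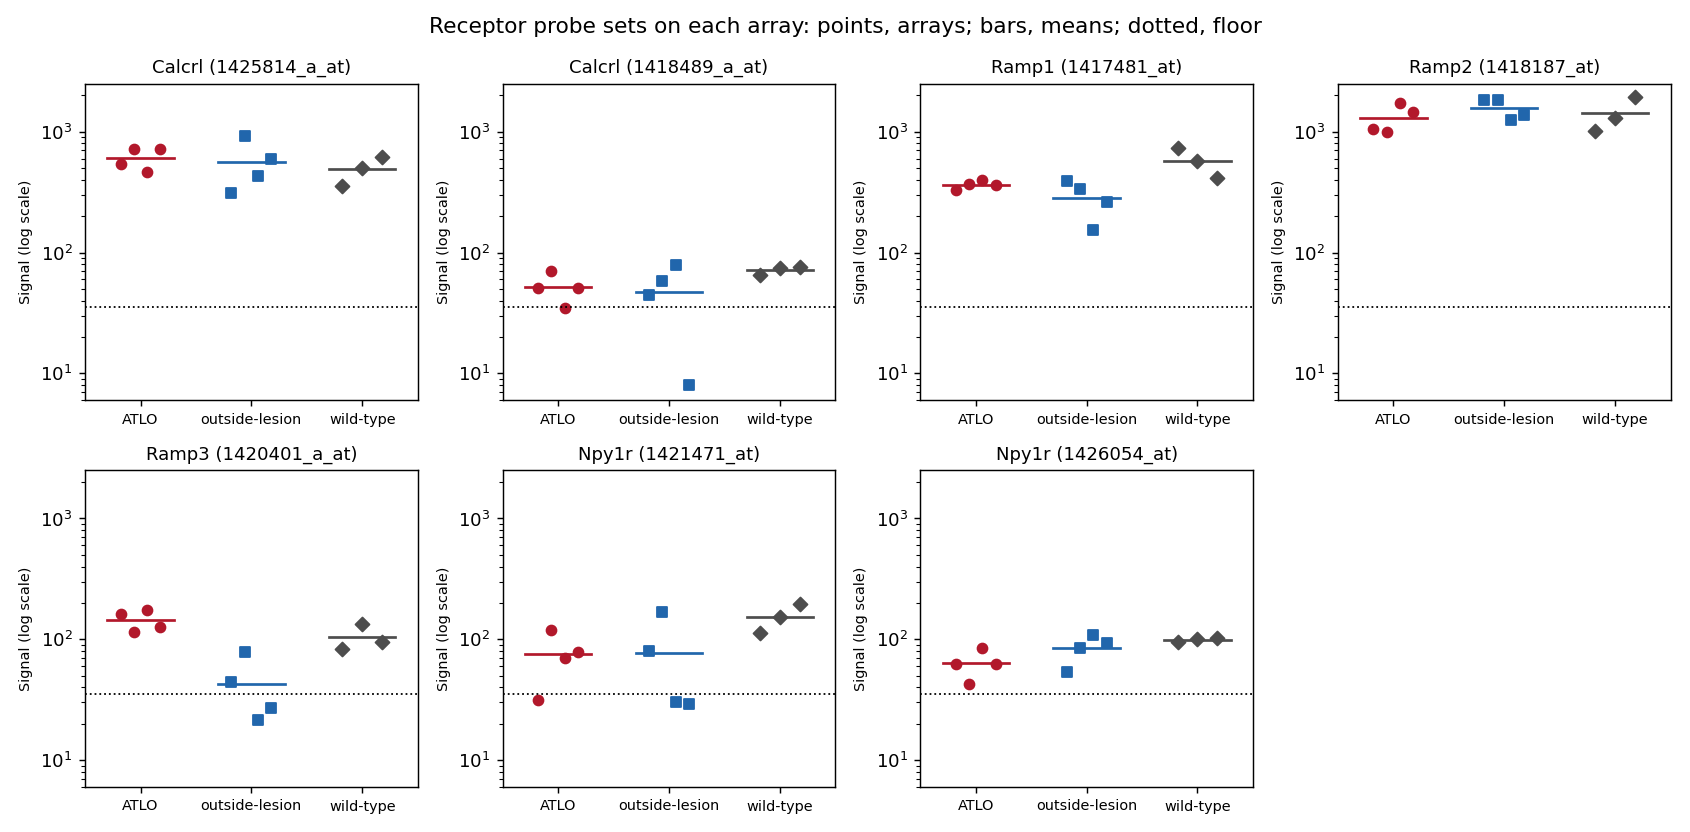
Deposited signal (log axis) of the 7 member probe sets on each array, with ATLO on the left, outside-lesion adventitia in the middle and wild type on the right; points are arrays, bars are means and the dotted line is the floor of 35.1. Ramp3 lies between 114.3 and 175.7 in ATLO and between 21.6 and 77.7 outside the lesion, whereas the tested Calcrl probe set and Ramp2 overlap between all groups.

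The other components of these receptors overlapped between the 2 Apoe-deficient tissues. The tested probe set of Calcrl, the shared receptor subunit, read 538.9, 713.6, 461.4 and 719.8 in ATLO, against 310.6, 912.9, 428.4 and 593.9 outside the lesion. Outside-lesion replicates 1 and 2 were its lowest and highest arrays. Its log2 change was 0.21 ± 0.30 (95% interval -0.43 to 0.84; limma adjusted p = 0.635). Ramp2, the partner for adrenomedullin that endothelial cells are known to express, read 1058.7, 1003.7, 1730.1 and 1448.5 in ATLO, against 1823.8, 1831.7, 1238.6 and 1369.1 outside the lesion. The groups overlapped, with the 2 highest arrays outside the lesion and the 2 lowest in ATLO (log2 change -0.27 ± 0.23, 95% interval -0.77 to 0.22, limma adjusted p = 0.399). Ramp1, the CGRP partner, read 326.8, 372.2, 399.7 and 359.9 in ATLO, against 388, 333.8, 154.8 and 263.4 outside the lesion. The ATLO arrays were close together and the outside-lesion arrays spread below and into their range (log2 change 0.43 ± 0.26, 95% interval -0.13 to 1.0, limma adjusted p = 0.237). A p above the threshold does not show that the levels were alike.

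Npy1r gave low signals on both of its probe sets. The tested probe set read 31.4, 119.5, 70.6 and 79.1 in ATLO, against 79.3, 166.9, 30.5 and 29.2 outside the lesion. The ranges overlapped almost fully, with 1 ATLO array and 2 outside-lesion arrays under the floor (log2 change 0.13 ± 0.51, 95% interval -0.97 to 1.23, limma adjusted p = 0.872). The other lay between 42.9 and 84.4 in ATLO and between 53.9 and 109.2 outside the lesion, below the 40th percentile on every array. It was not tested, and neither was the second Calcrl probe set, which lay between 34.4 and 69.9 in ATLO and between 8 and 78.1 outside the lesion. The levels of the 2 probe sets of a gene are not compared with each other, because probe sets differ in how brightly they report a transcript.

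The receptor components were also set against each other array by array. A signal ratio within an array does not depend on how that array was scaled, except where a signal was raised to the floor, as Ramp3 was on 2 outside-lesion arrays. Raising these 2 signals made each mean difference between ATLO and outside-lesion in a ratio with Ramp3 smaller than with the deposited signals. Ramp3 also lay below the 40th percentile on all 4 outside-lesion arrays, so its signals there were low. The log2 ratio of the Ramp3 to the Calcrl signal was -1.72, -2.64, -1.39 and -2.52 in ATLO, against -2.80, -3.55, -3.61 and -4.08 outside the lesion. It was higher in every ATLO array than in any outside-lesion array, with a difference of 1.44 between the group means. The log2 ratio of Ramp3 to Ramp2, the alternative adrenomedullin partners, was between -3.53 and -2.70 in ATLO and between -5.36 and -4.56 outside the lesion, a mean difference of 1.92 with no overlap. The ratio of Ramp3 to Ramp1 lay between -1.70 and -1.0 in ATLO and between -3.12 and -2.10 outside the lesion, and also did not overlap. Of the 6 pairs among Calcrl, Ramp1, Ramp2 and Ramp3, the 3 with Ramp3 and the ratio of Ramp2 to Ramp1 did not overlap. The last was lower in ATLO (between 1.43 and 2.11) than outside the lesion (between 2.23 and 3.00). Of single probe sets tested, 30.4% did not overlap in this comparison, and the share over all pairs was not computed. The 3 ratios with Ramp3 share its signals, which did not overlap by themselves, so they are not separate from the Ramp3 change. All these ratios are given as a description with no test. They show unequal change between 2 probe sets and not which of them changed.

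**Figure D2:**
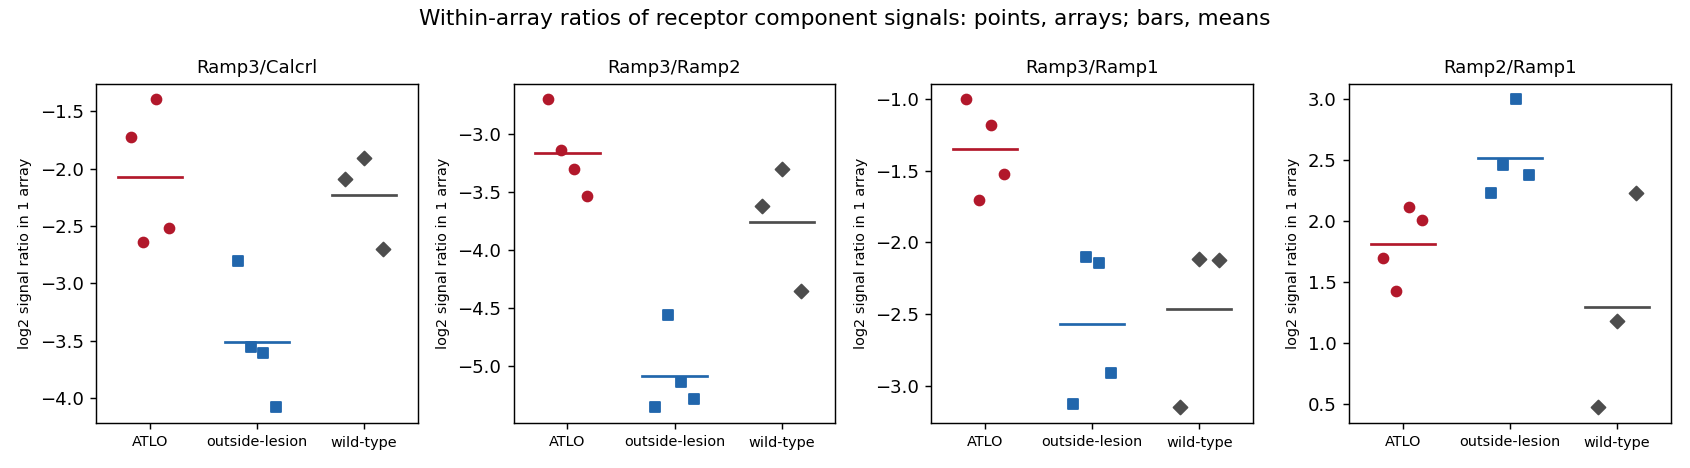
Within-array log2 ratio of the signals of 2 receptor components, with ATLO on the left, outside-lesion adventitia in the middle and wild type on the right; points are arrays and bars are means. The ratio of Ramp3 to Ramp2 lies between -3.53 and -2.70 in ATLO and between -5.36 and -4.56 outside the lesion, and that of Ramp3 to Ramp1 is higher in ATLO than in both other groups; Ramp3 was raised to the floor on outside-lesion replicates 3 and 4.

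Several cell markers moved along with Ramp3 between these tissues, and their part in the result was not tested. Of B cell markers 7 of 7 rose in ATLO, with summed signals between 10100 and 23840 in ATLO and between 899 and 2266 outside the lesion. Of T cell markers 7 of 7 were called higher (3394 to 6640 in ATLO, 496.4 to 770.6 outside), of macrophage markers 8 of 9 (38490 to 64350 in ATLO, 14030 to 24590 outside) and of fibroblast markers 5 of 8. Vascular endothelial markers went the other way, with 9 of 15 called lower in ATLO. Their summed signals lay between 6021 and 8344 in ATLO and between 9579 and 18840 outside the lesion. Of 4 lymphatic endothelial markers that passed the filter 1, Pdpn, which other stromal cells also express, was called higher in ATLO. The summed signals of these 4 lay between 3934 and 5040 in ATLO and between 2880 and 3898 outside. Of adipocyte markers 11 of 12 were called lower in ATLO (40880 to 109800 in ATLO, 192200 to 289700 outside). Of all probe sets tested, 17.9% were called higher and 13.9% lower in this comparison. The count of 1 of 4 lymphatic endothelial markers is near that share of higher calls. No marker in these lists was at or under the floor on all arrays of a group. RNA integrity was gauged by the actin control probe sets, whose 3' signal exceeds the 5' signal more in degraded RNA. This ratio was between 1.71 and 8.14 in ATLO and between 6.22 and 12 outside the lesion. With this ratio as a covariate the Ramp3 change was 1.73 ± 0.44 (limma adjusted p = 0.0178).

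The genes whose profile over the 11 arrays was most like that of Ramp3, by the root mean square difference of mean-centred log2 signals among 9054 other genes, were Comp (0.29), Smim3 (0.29) and Ctsc (0.30). These likenesses are a description. Comp encodes a cartilage and tendon matrix protein, and Ctsc encodes cathepsin C, a lysosomal protease of immune cells. Mean signals of Ctsc were 7085 in ATLO, 2270 outside the lesion and 3731 in wild type.

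Against wild-type adventitia no member was called, neither in ATLO nor outside the lesion, and the wild-type arrays tended to hold the higher values of Ramp1 and Npy1r. Both comparisons use the same 3 wild-type arrays, so they are not independent of each other. The actin 3' to 5' ratio lay between 4.19 and 5.4 in wild type, within the ATLO range (1.71 to 8.14). All outside-lesion arrays (6.22 to 12) lay above the wild-type arrays, so group and RNA integrity cannot be told apart between these 2 groups. In ATLO against wild type 0 of 5 member probe sets were called, where 26.8% of all probe sets tested were called, 13.4% higher and 13.4% lower. At an unadjusted p under 0.05 by limma the count was 1 of 5, beside 39.3% of all. Outside the lesion against wild type 0 of 5 were called, where 3.26% of all were called, 1.72% higher and 1.54% lower. At an unadjusted p under 0.05 the count was 3 of 5, beside 22.7% of all. The median log2 change of the members was -0.10 in ATLO against wild type and -1.05 outside the lesion against wild type, beside -0.05 and -0.11 for all probe sets tested. Equal array medians moved the median of all probe sets by 0.172 outside the lesion against wild type, and the log2 changes there were then -0.88 for Ramp1, -1.0 for Ramp3 and -1.08 for Npy1r, none of them called (limma adjusted p = 0.108, 0.14 and 0.293).

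Ramp1 was read at 733.9, 575.2 and 411.8 in wild type, above all 4 ATLO arrays (326.8 to 399.7) and above all 4 outside-lesion arrays (154.8 to 388). The mean was 573.6 ± 161 in wild type (SD, n = 3). The log2 change of Ramp1 was -0.62 ± 0.28 in ATLO (95% interval -1.23 to -0.01, limma adjusted p = 0.124) and -1.05 ± 0.28 outside the lesion (95% interval -1.66 to -0.44, limma adjusted p = 0.062), both against wild type. Complete separation of the arrays was common among all probe sets, with 38.1% not overlapping in ATLO against wild type and 21.5% outside the lesion against wild type. Without outside-lesion replicate 2 the second change was called (-1.15, adjusted p = 0.0448), as it was with array weights (-1.19, adjusted p = 0.0131). These were the only 2 of 22 alternatives that called it, with limma adjusted p up to 0.194 in the others. Both settings also called more of all probe sets in that comparison, as given below.

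Ramp3 in wild type read 82.8, 133.1 and 94.8, with a mean between those of the other groups. The ATLO arrays overlapped with these (log2 change 0.49 ± 0.36, 95% interval -0.28 to 1.25, limma adjusted p = 0.328). All 4 outside-lesion arrays lay below them (log2 change -1.16 ± 0.36, 95% interval -1.92 to -0.40, limma adjusted p = 0.0882). This change was called without outside-lesion replicate 2, the array with the highest Ramp3 of its group (-1.40, adjusted p = 0.0283), and with array weights (-1.40, adjusted p = 0.0178). These were the only 2 of 21 alternatives that called it, with limma adjusted p up to 0.261 in the others. No order of Ramp3 between ATLO and wild type can be read, since these overlapped. The outside-lesion arrays were the lowest, and their difference was called against ATLO and not against wild type. Within arrays, the log2 ratio of Ramp3 to Ramp1 was -3.15, -2.11 and -2.12 in wild type, below all ATLO arrays and overlapping with the outside-lesion arrays. The ratio of Ramp3 to Ramp2 was between -4.35 and -3.30 in wild type, above all outside-lesion arrays and overlapping with ATLO.

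**Figure D3:**
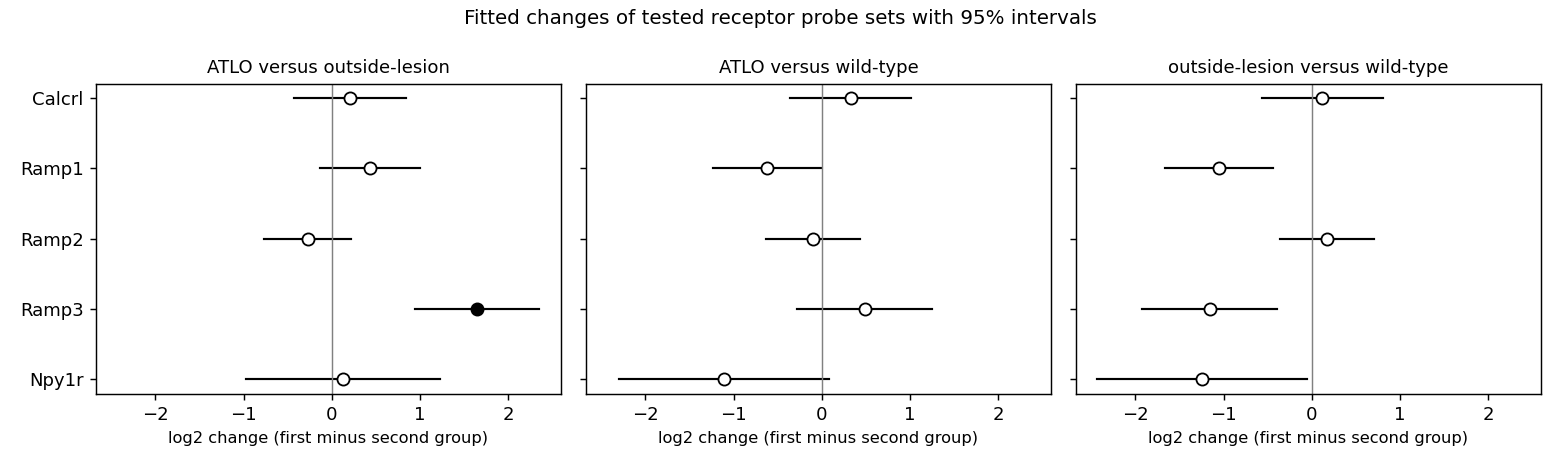
Fitted log2 change of the 5 tested member probe sets (rows) in 3 comparisons, as the first minus the second group of each panel title; points are estimates, lines are 95% intervals and the filled point is the 1 called change. Ramp3 stands at 1.65 for ATLO against outside-lesion adventitia, and Ramp1, Ramp3 and Npy1r lie below 0 for outside-lesion against wild type without being called.

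Calcrl and Ramp2 were nearest to even across the genotypes. The tested Calcrl probe set read 352.7, 497.9 and 614.5 in wild type, within the outside-lesion range and overlapping with ATLO, where no array was as low as wild-type replicate 1. Its log2 change was 0.33 ± 0.32 in ATLO (95% interval -0.36 to 1.02, limma adjusted p = 0.471) and 0.12 ± 0.32 outside the lesion (-0.56 to 0.81, limma adjusted p = 0.847). Ramp2 read 1019.3, 1308.5 and 1932.2 in wild type. Its log2 change against wild type was -0.10 ± 0.25 in ATLO (95% interval -0.64 to 0.43, limma adjusted p = 0.791) and 0.17 ± 0.25 outside the lesion (-0.36 to 0.70, limma adjusted p = 0.712). No order of the groups can be read for these 2 genes, since all neighbouring levels overlapped.

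Npy1r was low throughout, with the highest group mean in wild type. Its tested probe set read 112.7, 153.3 and 196.1 in wild type, where the highest ATLO array was 119.5 and the highest outside-lesion array 166.9. The log2 change was -1.11 ± 0.55 in ATLO (95% interval -2.30 to 0.08, limma adjusted p = 0.152) and -1.24 ± 0.55 outside the lesion (95% interval -2.43 to -0.05, limma adjusted p = 0.204). Its untested probe set read 95.2, 99.8 and 102.4 in wild type, above all 4 ATLO arrays (42.9 to 84.4) and overlapping with those outside the lesion. With no filter its log2 change in ATLO against wild type was -0.69 ± 0.27 (limma adjusted p = 0.117). Both probe sets thus had lower values in ATLO than in wild type, and neither passed the test. The untested Calcrl probe set read 64.6, 74.5 and 75.5 in wild type, and its change in ATLO with no filter was -0.51 ± 0.29 (limma adjusted p = 0.277).

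Contractile genes moved in the same direction as Ramp1 and Npy1r in ATLO, and their part was not tested. Of 11 smooth muscle markers 8 were called lower in ATLO than in wild type (median log2 change of the list -1.34), beside 13.4% of all probe sets. Their summed signals, given above, did not overlap between these groups. Outside the lesion 0 of 11 were called against wild type (median log2 change -0.83), beside 3.26% of all probe sets. There 2 of 8 fibroblast and 1 of 4 lymphatic endothelial markers were called lower, beside 1.54% of all probe sets. Of adipocyte markers 1 of 12 was called higher there, beside 1.72% of all. Endothelial markers were called lower in ATLO than in wild type in 3 of 15 cases (median log2 change of the list -0.44), beside 13.4% of all probe sets. Outside the lesion 0 of 15 endothelial markers were called.

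Of the related receptor genes listed, 8 had a probe set and 2 passed the filter. Crcp, an intracellular protein of the CGRP receptor complex, was even across the groups, with means of 359 ± 21.8 in ATLO (SD, n = 4), 373 ± 72.0 outside the lesion (n = 4) and 375 ± 36.5 in wild type (n = 3). Npy4r, the receptor for pancreatic polypeptide, read 67.2, 78.6, 74.7 and 49 in ATLO, against 169.9, 188 and 132 in wild type, and was called lower (log2 change -1.29 ± 0.36, limma adjusted p = 0.0182). Npy4r passed the filter through its 3 wild-type arrays, with 0 ATLO arrays and 1 outside-lesion array above their own 40th percentile, and was also called lower with no filter (adjusted p = 0.028). Outside the lesion Npy4r lay between 41.8 and 110.6, which is below the wild-type arrays but was not called (log2 change -1.09 ± 0.36, limma adjusted p = 0.111). The adrenergic receptors Adra1b and Adra2c were near the floor. Adra1b lay between 5.2 and 65.4 in ATLO, 23.4 and 120 outside the lesion, and 27.3 and 54.5 in wild type. Adra2c lay between 20.4 and 100.4 in ATLO, 19.4 and 111.9 outside the lesion, and 19.7 and 121.9 in wild type. Signals of the calcitonin receptor gene Calcr reached at most 44.8 in ATLO, 70.2 outside the lesion and 39.1 in wild type. Of the other neuropeptide Y receptor genes, Npy2r reached at most 22.5 in ATLO, 24.8 outside and 37.2 in wild type, and Npy6r at most 16 in ATLO, 51.6 outside and 22.6 in wild type. The highest signals of the 2 Npy5r probe sets were 53.8 and 24.4 in ATLO, 58.5 and 70.7 outside the lesion, and 85.5 and 64.2 in wild type.

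Of the ligands, Adm, which encodes adrenomedullin, was lower in ATLO than in wild type. It read 163.2, 141.2, 241.9 and 164.3 in ATLO, against 398.3, 568 and 345.1 in wild type, with no overlap (log2 change -1.30 ± 0.32, limma adjusted p = 0.0103). Outside the lesion Adm spread from 146.6 to 386.4, and it was called neither against wild type (log2 change -0.81 ± 0.32, adjusted p = 0.166) nor in ATLO against outside-lesion adventitia (log2 change -0.49 ± 0.30, adjusted p = 0.238). Calcb, which encodes beta-CGRP, did not pass the filter, with signals of at most 60.7 in ATLO, 75.8 outside the lesion and 68.2 in wild type.

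Npy, the ligand of the Npy1r product, varied widely within groups. It read 1974.8, 923.8, 2936 and 2407 in ATLO, 93.9, 287.6, 641.4 and 4656.1 outside the lesion, and 9676.1, 325.6 and 1628 in wild type. Outside-lesion replicate 4 and wild-type replicate 1 were the highest of their groups, and they also held the highest Th (1368.3 and 2462.1) and Dbh (1011 and 2380.9), the enzymes of noradrenaline synthesis. The change of Npy in ATLO was 1.83 ± 1.07 against outside-lesion adventitia (limma adjusted p = 0.218) and 0.14 ± 1.16 against wild type (limma adjusted p = 0.946). None of the 7 tested genes of catecholamine synthesis, transport and breakdown was called in any comparison by limma, and neither was any of 14 neuron markers, whose summed signal lay between 1931 and 7234 in ATLO, 672.1 and 9303 outside the lesion, and 1118 and 23850 in wild type. Of all probe sets tested, 31.9% were called between ATLO and outside-lesion, 26.8% between ATLO and wild type and 3.26% between outside-lesion and wild type. The noradrenaline transporter gene Slc6a2 lay between 94.1 and 126.7 in ATLO, 74.3 and 128.1 outside the lesion, and 78.7 and 189.7 in wild type.

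Of peptide ligands and the enzymes that make or cleave them, 8 genes were tested. In ATLO 2 were called higher and 1 lower than outside the lesion, beside 31.9% of all probe sets called. Against wild type 1 was called higher and 2 lower in ATLO, beside 26.8% of all. Dpp4 encodes a dipeptidyl peptidase that trims neuropeptide Y so that it no longer activates the Npy1r product, and T cells and fibroblasts express it. It read 240, 392.4, 359.2 and 395.7 in ATLO, against 87.5, 116.6, 94.9 and 115 outside the lesion and 87.6, 125.2 and 108.8 in wild type. On this probe set all ATLO arrays lay above all others (log2 change 1.73 ± 0.23, adjusted p = 1.06e-04 against outside-lesion, and 1.68 ± 0.25, adjusted p = 4.99e-04 against wild type, by limma). The other Dpp4 probe set was below the 40th percentile on every array and was not tested. It lay between 13 and 74.8 in ATLO, 2.2 and 12.1 outside the lesion, and 6 and 65.3 in wild type, so ATLO and wild type overlapped on it. Mme, which encodes neprilysin, a membrane peptidase that degrades CGRP and adrenomedullin among other peptides, went the other way. It lay between 294.4 and 478.9 in ATLO, between 800.4 and 1624.5 outside the lesion, and between 759.4 and 1005.4 in wild type. Its log2 change in ATLO was -1.70 ± 0.22 against outside-lesion (limma adjusted p = 7.84e-05) and -1.30 ± 0.23 against wild type (limma adjusted p = 0.00157). A further probe set of Mme was also called lower in both comparisons. That probe set passed the filter through outside-lesion and wild-type arrays alone, with 0 ATLO arrays above their own 40th percentile. Its calls are therefore no further support. Pcsk1, a convertase that cuts peptide precursors, lay between 93.6 and 127.4 in ATLO and between 5.3 and 70 outside the lesion, with 3 of those 4 arrays under the floor (log2 change against the floored values 1.37 ± 0.45, limma adjusted p = 0.0328). It passed the filter through 2 ATLO arrays and 1 wild-type array, and with no filter it was not called (adjusted p = 0.0697). The B cell, T cell, fibroblast and adipocyte markers given above moved between the same groups, and their part in these changes was not tested.

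**Figure D4:**
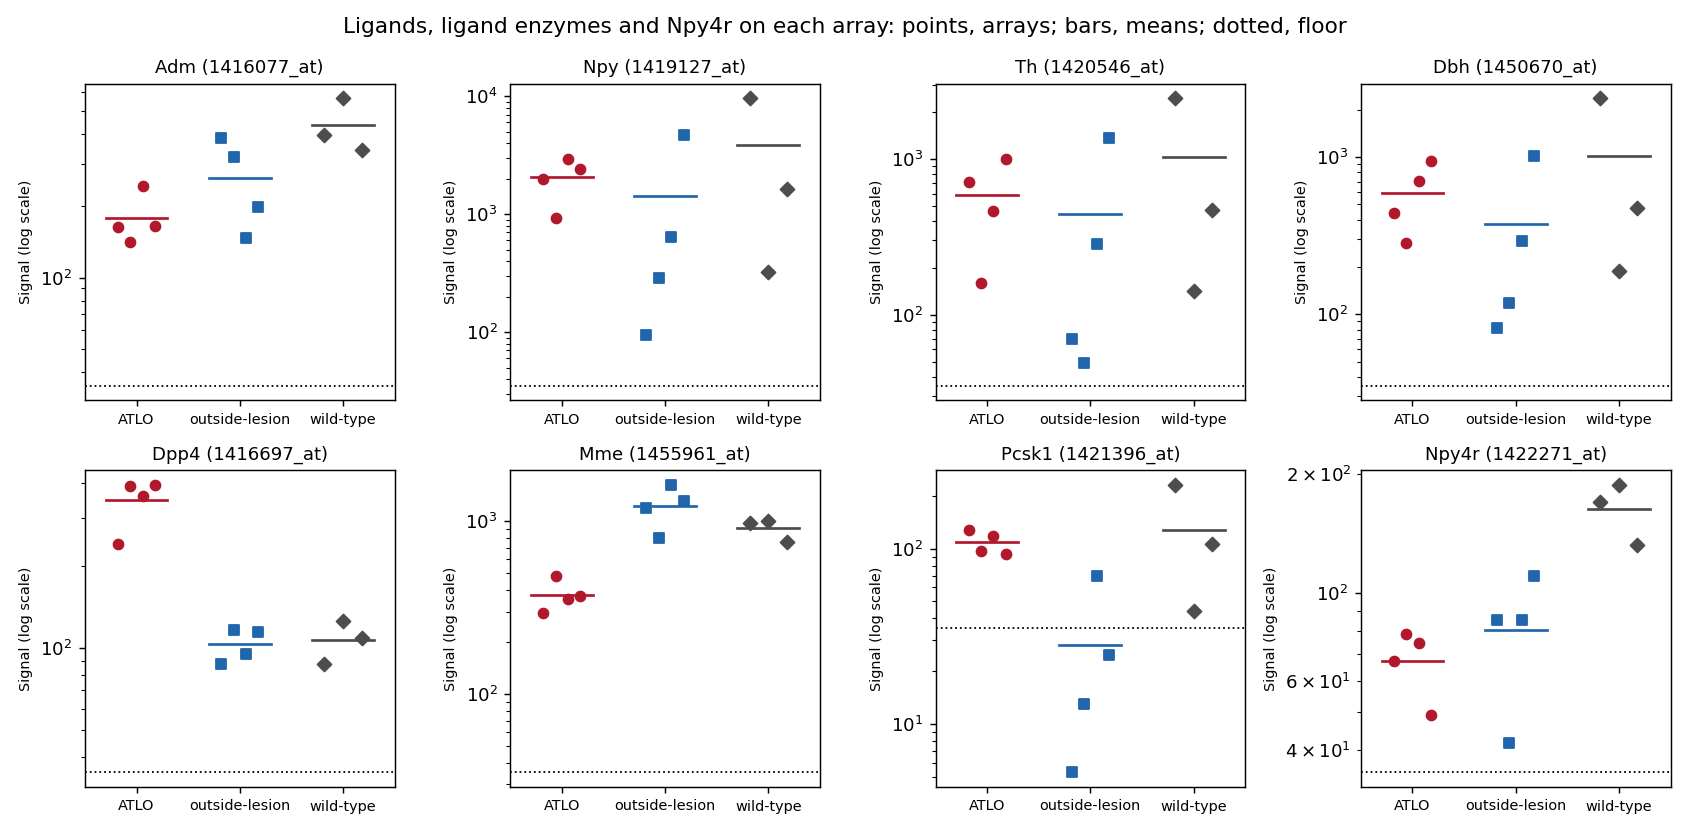
Deposited signal (log axis, scaled to each panel) of ligand genes, enzymes and Npy4r on each array, with ATLO on the left, outside-lesion adventitia in the middle and wild type on the right; points are arrays, bars are means and the dotted line is the floor. Dpp4 is highest and Mme lowest in ATLO without overlap, whereas Npy, Th and Dbh are highest in outside-lesion replicate 4 and wild-type replicate 1 of their groups.

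Downstream of these receptors, 30 genes of G protein and cyclic AMP signalling passed the filter. In ATLO against outside-lesion adventitia 6 were called higher and 7 lower (median log2 change -0.23), where 31.9% of all probe sets were called with a median of 0.10. In ATLO against wild type 5 were called higher and 6 lower (median log2 change -0.20), where 26.8% of all were called with a median of -0.05. Outside the lesion 0 of 30 were called against wild type, where 3.26% of all were called. The B cell, T cell, macrophage, adipocyte and endothelial markers moved between ATLO and the outside-lesion group as given above, and their part in these changes was not tested. Adcy7, an adenylate cyclase abundant in blood cells, was higher in ATLO (4143.9 to 5128.8) than outside the lesion (1100.3 to 2436.6; log2 change 1.70 ± 0.23, limma adjusted p = 1.14e-04) and than in wild type (1744.3 to 2554; log2 change 1.10 ± 0.25, limma adjusted p = 0.00603). Against wild type another Adcy7 probe set was not called (log2 change 0.56 ± 0.42, limma adjusted p = 0.34). A further Adcy7 probe set was called higher there (1.71 ± 0.26, limma adjusted p = 6.01e-04). Arrb2, an arrestin that uncouples activated receptors, lay between 1375.5 and 2081.3 in ATLO, between 468.2 and 736 outside the lesion and between 397.9 and 570.8 in wild type, with log2 changes of 1.48 ± 0.19 and 1.75 ± 0.20 against these groups (limma adjusted p = 6.94e-05 and 1.18e-04).

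Lower in ATLO than outside the lesion were Gnai1, an inhibitory G protein subunit (1380.6 to 2332.8 in ATLO, 4501.2 to 5808.5 outside; log2 change -1.35 ± 0.18, limma adjusted p = 8.83e-05), and Prkaca, a catalytic subunit of protein kinase A (319.1 to 603.7 in ATLO, 869.2 to 1133.5 outside; log2 change -1.16 ± 0.19, limma adjusted p = 3.75e-04). Gnas, which encodes the stimulatory G protein subunit that the CGRP and adrenomedullin receptors use, was named after its values were seen. Its main probe set lay between 5640.9 and 9122 in ATLO and between 10152.1 and 18312.7 outside the lesion (log2 change -0.97 ± 0.23, limma adjusted p = 0.00542). Against wild type the largest falls in ATLO were those of Akap12, an anchoring protein of protein kinase A that binds beta-adrenergic receptors (527.3 to 1775.1 in ATLO, 2977.9 to 3509.2 in wild type; log2 change -1.68 ± 0.33, limma adjusted p = 0.00274), and the adenylate cyclase Adcy3 (452.9 to 520.2 in ATLO, 802.3 to 1744.6 in wild type; log2 change -1.23 ± 0.33, limma adjusted p = 0.0144). Another probe set of Adcy3 was at -0.97 and not called (adjusted p = 0.0883).

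Of 7 genes that act downstream of beta-adrenergic receptors in fat, 6 were called lower in ATLO than outside the lesion and 4 lower than in wild type. Of all probe sets tested, 13.9% and 13.4% were called lower in these comparisons. Dio2, also in this list, was called in neither. Its log2 change in ATLO was 0.15 ± 0.62 against outside-lesion (limma adjusted p = 0.877) and -0.29 ± 0.67 against wild type (limma adjusted p = 0.78). Lipe, hormone-sensitive lipase, lay between 634 and 1384.2 in ATLO and between 2663.5 and 4341.7 outside the lesion (log2 change -1.82 ± 0.24, limma adjusted p = 8.75e-05), and Ppargc1a, the coactivator of mitochondrial genes, lay between 47 and 53.6 in ATLO and between 128.9 and 740.6 outside (log2 change -2.78 ± 0.50, limma adjusted p = 9.62e-04). Ucp1, the uncoupling protein of brown fat, lay between 4.3 and 694.9 in ATLO, with 2 arrays under the floor, and between 143.4 and 26623.9 outside the lesion. The groups overlapped, and the change was called (log2 change -5.45 ± 1.58, limma adjusted p = 0.0177). Cidea, a lipid droplet protein, did not overlap (360.1 to 947.4 in ATLO, 2589.6 to 15941.9 outside; log2 change -3.95 ± 0.50, limma adjusted p = 7.95e-05). Outside the lesion 1 of the 7, the triglyceride lipase Pnpla2, was higher than in wild type (9571.7 to 13439.7 outside, 4766.8 to 6091.4 in wild type; log2 change 1.04 ± 0.24, limma adjusted p = 0.0382), whereas its other probe set was not called (log2 change 0.20 ± 0.28, limma adjusted p = 0.7). The adipocyte marker sums were lowest in ATLO, as given above, and lay between 115700 and 146700 in wild type. Ucp1, Cidea, Lipe, Pnpla2 and the lipase gene Lpl belong to both lists. The sums are therefore not separate from the counts in this paragraph, and the part of adipocyte content in them was not tested.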

How the data were processed

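Affymetrix arrays of 11 adventitia samples were used, 4 ATLO, 4 outside-lesion and 3 wild-type. The authors deposited linear signal intensities, made with GCOS 1.4 per the submitters' processing notes. Their trimmed mean (2% at each end) was between 500.2 and 500.3 on every array and their median between 152.3 and 191.7, so arrays had been scaled. How probe signals were summarised is not stated by these sources, and the number of arrays limits the precision. Of 22690 probe sets 64 controls were left out, and 20380 had 1 symbol in the platform annotation, 691 several and 1555 none. Gene IDs of all 7 member probe sets matched the mouse RefSeq table. No coordinates are given because no build is named. Probe sets that Ramp2 shares with another gene were not used.

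Signals raised to 35.1 were taken to log2 and fitted with a mean per group in limma 3.58.1 (R 4.3.3), with an intensity trend. The fit was tested on simulated data. A gene in a list is represented by its brightest tested probe set. Named were all members, Apoe, the listed related receptors and main ligand genes, up to 4 called genes with the largest change per list and comparison, and the 3 genes most like each called member. The members and lists were chosen with earlier results of these data known. Lists overlap in part. Alternatives were other scalings, floors and filters, the compared groups alone, blocking on the replicate number, weighting arrays by their quality, a fit without the trend, the actin ratio as a covariate and each array left out.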

Additional observations from a re-analysis of the deposited data

How the results depend on the processing

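The Ramp3 change between ATLO and outside-lesion adventitia was called under all 21 alternatives that tested it, including each array left out, with log2 changes between 1.06 (floor at the 30th percentile) and 1.92 (floor at the 10th percentile) and adjusted p between 5.24e-04 and 0.0178. Under the filter of 6 arrays Ramp3 and Npy1r were not tested, so 0 members were called. Leaving out 1 array gave 1 called member in ATLO against outside-lesion throughout, 0 in ATLO against wild type, and between 0 and 2 in outside-lesion against wild type; array weights gave 3 there, Ramp1, Ramp3 and Npy1r (-1.60, adjusted p = 0.0452).

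Uncalled changes that turned sign were, for Calcrl in ATLO against outside-lesion, -0.29 with the actin covariate and a range of -0.04 to 0.48 with 1 array left out; for Calcrl outside-lesion against wild type, a range of -0.15 to 0.37; for Npy1r in ATLO against outside-lesion, -0.094 with the 30th percentile floor, -0.47 with the actin covariate and a range of -0.16 to 0.59 with 1 array left out; for Ramp2 in ATLO against wild type, 0.037 with array weights and a range of -0.32 to 0.15; and for Ramp2 outside-lesion against wild type, a range of -0.044 to 0.42.

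Of all probe sets, the count called for ATLO against outside-lesion was 4777, between 4002 and 4691 with 1 array left out, and 2552 with the actin covariate. For ATLO against wild type it was 4012, between 2736 and 4244. For outside-lesion against wild type it was 489, and 301 with no filter, 202 with the compared groups alone, 1530 with array weights, 248 with no trend and 86 with the actin covariate. It was 269 without ATLO replicate 4, 208, 887, 164 and 112 without outside-lesion replicates 1 to 4, and 105, 21 and 27 without wild-type replicates 1 to 3. In that comparison equal array medians gave 557 higher and 81 lower (87.3% higher) and quantile normalization 300 higher and 136 lower (68.8%), against 258 and 231 (52.8%) as deposited. With no filter Pcsk1 was no longer called higher in ATLO than outside the lesion (1.37, adjusted p = 0.0697). The causes were not tested.

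The labels tie same-numbered arrays by nothing but the number, and not every pair deviated together, so they were not treated as pairs. The correlations of their deviations lay between 0.04 and 0.15 for ATLO and outside-lesion, 0.01 and 0.27 for ATLO and wild type, and -0.18 and 0.12 for outside-lesion and wild type. They exceeded 0.1 in 2 of 4, 2 of 3 and 1 of 3 pairs, and the same-numbered array was the best match in 2 of 4, 3 of 3 and 2 of 3, a hint from the data and not from the design. With the replicate number as a block, 4744, 3819 and 189 probe sets were called in these comparisons, and no call of a member changed. Signals near the floor limit what can be said of Ramp3 outside the lesion, of Npy1r and of most related receptors.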
